A study of Homo sapiens with 6 samples.

Results

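Linker histone H1 genes were followed in the human pancreatic ductal adenocarcinoma line PANC-1 after siRNA against SOX9. The set was defined by gene symbol as HIST1H1A, HIST1H1B, HIST1H1C, HIST1H1D, HIST1H1E, HIST1H1T and H1FX, and all 7 were found among the 19830 genes of the authors' deposited table. The groups were PANC-1 cells given 25 nM of SOX9 siRNA and PANC-1 cells given 25 nM of a control siRNA, both with Lipofectamine and both harvested after 48 hours, with 2 RNA libraries in each. The table gives each gene 1 mean over the 4 libraries and 1 fold change, without values for single libraries. The labels do not tie the libraries to separate cultures, so p-values reflect library-to-library spread that may be technical only. All results come from 1 cell line and 1 comparison.

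Linker histones bind where DNA enters and leaves the nucleosome and help to fold chromatin into a more compact form. Most subtypes are made from genes of the histone clusters on chromosome 6, which are transcribed mainly in S phase and whose main mRNAs end in a stem-loop in place of a poly(A) tail. H1FX lies outside those clusters, gives a polyadenylated mRNA and is expressed outside S phase as well. HIST1H1A encodes subtype H1.1, HIST1H1B H1.5, HIST1H1C H1.2, HIST1H1D H1.3 and HIST1H1E H1.4, while HIST1H1T encodes the testis subtype H1t and H1FX encodes H1X. Per the labels, libraries were made from total RNA with a stranded total RNA kit.

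Promoters are shown because the genes whose mRNA moved together could be compared there with that of a gene that was not called. RefSeq promoter windows matched all 7 genes. Each stretch below runs 5′ to 3′ on the gene's own strand and ends 21 bases before the RefSeq transcript start. Capitals mark AAACACA, known as the H1 box, or its reverse complement TGTGTTT, then CCAAT, the sequence that the factor NF-Y is known to bind, and TATAAA or TATATA.
HIST1H1B (GRCh38.p14, chr6:27867609-27867713, minus strand): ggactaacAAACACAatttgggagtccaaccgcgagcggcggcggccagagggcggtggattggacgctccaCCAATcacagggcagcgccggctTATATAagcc
HIST1H1C (GRCh38.p14, chr6:26056491-26056595, minus strand): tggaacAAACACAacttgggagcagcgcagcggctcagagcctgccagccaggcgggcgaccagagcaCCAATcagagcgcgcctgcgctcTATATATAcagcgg
HIST1H1D (GRCh38.p14, chr6:26235008-26235112, minus strand): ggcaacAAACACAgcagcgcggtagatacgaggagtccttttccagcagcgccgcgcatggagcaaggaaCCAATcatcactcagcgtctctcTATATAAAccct
HIST1H1E (GRCh38.p14, chr6:26156204-26156308, plus strand): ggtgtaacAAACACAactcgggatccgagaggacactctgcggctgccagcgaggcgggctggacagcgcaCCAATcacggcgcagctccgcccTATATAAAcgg
HIST1H1T (GRCh38.p14, chr6:26108156-26108260, minus strand): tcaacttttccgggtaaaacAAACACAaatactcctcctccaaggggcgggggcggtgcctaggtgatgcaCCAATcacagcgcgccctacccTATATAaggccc
HIST1H1A (GRCh38.p14, chr6:26017808-26017977, minus strand): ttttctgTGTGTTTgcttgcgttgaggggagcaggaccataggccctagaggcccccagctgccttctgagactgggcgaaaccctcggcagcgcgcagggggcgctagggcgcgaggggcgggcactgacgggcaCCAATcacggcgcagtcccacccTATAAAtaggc
H1FX (GRCh38.p14, chr3:129316307-129316411, minus strand): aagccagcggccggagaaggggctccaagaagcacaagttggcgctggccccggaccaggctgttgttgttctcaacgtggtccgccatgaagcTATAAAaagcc

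In HIST1H1B, HIST1H1C, HIST1H1D and HIST1H1E the forward H1 box nearest to the start began 117 to 119 bases before it, and the forward CCAAT began 53 to 57 bases before it. Farther out, HIST1H1B held a second H1 box 226 bases before the start and HIST1H1C a reverse one at 242 bases, and HIST1H1B also held a reverse CCAAT at 66 bases. The interval from the first base of that H1 box to the first base of CCAAT was 64 bases in HIST1H1B and HIST1H1D, 63 in HIST1H1E and 62 in HIST1H1C. HIST1H1T had the same order with 51 bases between them. HIST1H1A had its CCAAT 54 bases before the start, but its only H1 box was in reverse orientation, 183 bases before the start. H1FX held neither an H1 box nor a CCAAT in its window, and had a TATAAA 31 bases before the start. The 5 genes HIST1H1B, HIST1H1C, HIST1H1D, HIST1H1E and HIST1H1T shared a run of 10 bases, AACAAACACA, which contains the H1 box, and all 6 chromosome 6 genes shared ACCAATCA, which contains the CCAAT.

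**Figure D1:**
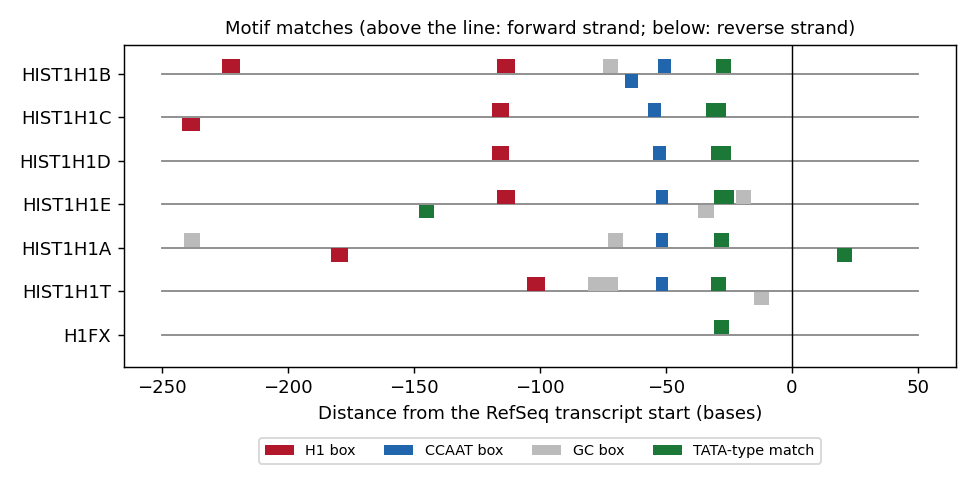
Positions of motif matches in the promoter windows of the 7 linker histone genes, with distance from the RefSeq transcript start in bases on the x axis and matches on the forward and reverse strand above and below each line. The forward H1 boxes nearest to the start in HIST1H1B, HIST1H1C, HIST1H1D and HIST1H1E begin 117 to 119 bases before it and their forward CCAAT boxes 53 to 57 bases before it, and H1FX holds only a TATA-type match.

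On either strand, AAACACA was in 5.64% of the 35116 promoter windows of the RefSeq table and in 6 of the 7 linker histone windows. CCAAT was in 34.6% of all windows, GGGCGG in 45%, TATAAA in 11.5% and TATATA, searched after the sequences were seen, in 3.99%. TATATA overlaps TATAAA in HIST1H1D and HIST1H1E. The run AACAAACACA, also found after the sequences were seen, was in 0.148% of windows, which belonged to 52 genes, 5 of them linker histone genes. It was taken as the longest run common to the windows of these 5, with HIST1H1A left out. Their presence among the 52 was therefore fixed in advance. AACAAACACA was in 0 of 58 core histone genes of the table, of which 3 had an H1 box, 48 a CCAAT, 14 a GGGCGG, 40 a TATAAA and 13 a TATATA. The run ACCAATCA, taken in the same way from the 6 chromosome 6 genes, was in 1.87% of windows. It was also in 16 of the 58 core histone genes, so it is not particular to linker histone genes. A match is a description of the letters and not of a bound site. Of the 47 other genes with the run AACAAACACA, 10 were tested under the same symbol. Of these 0 fell and 0 rose by the authors' DESeq2 test, beside 0.939% and 0.868% of all tested genes. These 10 are too few to show whether the run goes with a change. Their median log2 fold change was -0.02, beside -0.02 over all tested genes.

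SOX9 siRNA was accompanied by lower mRNA of the 4 abundant chromosome 6 linker histone genes, while the value of H1FX stayed within its error of no change. In the authors' deposited table HIST1H1B fell to 56.2% of control, HIST1H1D to 59.3%, HIST1H1E to 60.9% and HIST1H1C to 65.0%. H1FX stood at 90.7% of control in the authors' deposited table and was not called. HIST1H1A and HIST1H1T were almost absent and were not tested. A gene was called at an authors' adjusted p under 0.05, and 4 of the 5 tested linker histone genes were lower at that threshold, beside 0.939% of the 14063 tested genes. Of the 5, 0 were called higher by DESeq2, beside 0.868% of tested genes. At an unadjusted p under 0.05 0 of them were higher, beside 700 of the 14063 tested genes.

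No header names the numerator of the fold changes. They were taken as SOX9 siRNA over control siRNA from the negative sign at SOX9, the siRNA target, and all directions reverse if the numerator was the control. The authors' deposited table puts SOX9 itself at 55.9% of control with a DESeq2 adjusted p of 0.0643, so SOX9 did not pass the threshold. As a check of the labelled carcinoma cell type, all 6 epithelial markers had mean normalized counts of 354 or more, up to 203350 for KRT8. One of them, EPCAM, fell with a log2 fold change of -1.76 (DESeq2 adjusted p of 1.85e-05 per the authors' deposited table), while KRT8, KRT18 and KRT19 stood at 0.55, 0.50 and 0.50 and were not called. All 4 endothelial markers and the 3 acinar markers in the table were under 4, and of 5 leukocyte markers in the table the highest mean was 52.2. Of 6 fibroblast and stellate markers 3 were under 10 and the highest was COL1A1 with 449, which rose with a log2 fold change of 0.98 (DESeq2 adjusted p of 0.0445 per the authors' deposited table). Their levels in single libraries are not in the table, and their part in the results was not tested.

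The 4 abundant chromosome 6 genes made up most of the mRNA of the 7 linker histone genes reported here. Levels between genes are compared as normalized counts per kb of RefSeq gene length, since none of these genes has introns. The mean normalized count per kb was 25988 for HIST1H1C, 24731 for HIST1H1B, 17745 for HIST1H1E and 7129 for HIST1H1D. It was 2868 for H1FX. Without values per library no spread can be put on this order, so whether neighbours in it, such as HIST1H1C and HIST1H1B, differ cannot be said.

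Group levels can be recovered approximately from the mean and the fold change, because both groups have 2 libraries. HIST1H1B, the H1.5 gene, had a mean normalized count of 19710 in the authors' deposited table, which corresponds to 25234 in control and 14186 with SOX9 siRNA. HIST1H1C, the H1.2 gene, had a mean of 18998, which corresponds to 23027 in control and 14968 with SOX9 siRNA. HIST1H1E, the H1.4 gene, had a mean of 13966, which corresponds to 17358 and 10574. Per kb, HIST1H1B and HIST1H1C stood at 31661 and 31500 in control and at 17800 and 20476 with SOX9 siRNA. HIST1H1D, the H1.3 gene and the least abundant of these 4, had a mean of 5532, which corresponds to 6946 in control and 4119 with SOX9 siRNA. H1FX had a mean of 4347, which corresponds to 4560 and 4135. Per kb, HIST1H1D stood at 8951 in control and 5308 with SOX9 siRNA, above H1FX at 3008 and 2727 in both groups.

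**Figure D2:**
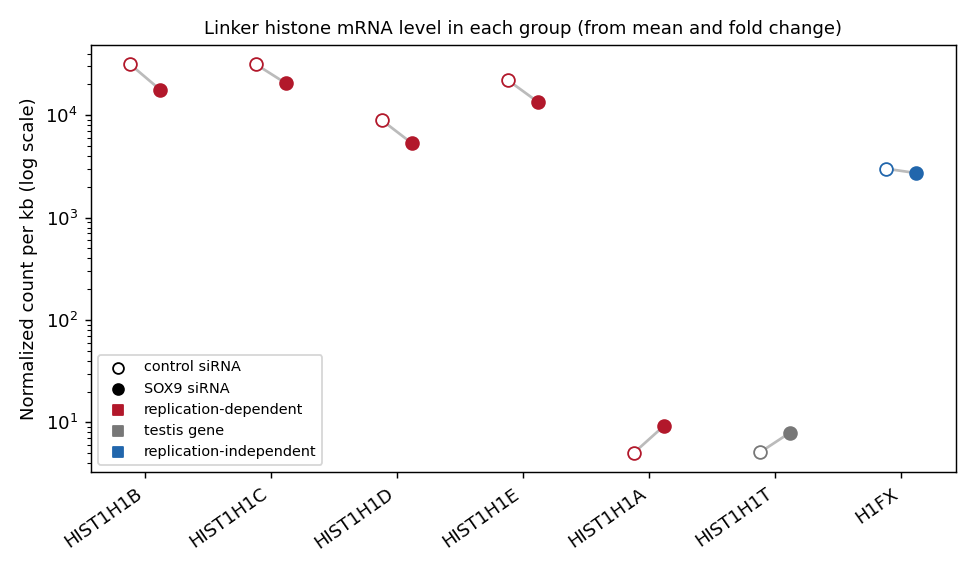
Normalized count per kb of RefSeq gene length (log scale) of the 7 linker histone genes in control siRNA (open) and SOX9 siRNA (filled), each recovered from the deposited mean and fold change, with no error bar because the table has no values per library. HIST1H1B, HIST1H1C, HIST1H1D and HIST1H1E are lower with SOX9 siRNA, the values of H1FX are close together, and HIST1H1A and HIST1H1T lie under 10.

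The 4 falls were measured with similar standard errors. The authors' deposited table gives HIST1H1B a log2 fold change of -0.83 ± 0.19 (standard error) and a DESeq2 adjusted p of 0.00408, and the 95% Wald interval ran from 43.2% to 73.2% of control. For HIST1H1D the authors' deposited table gives -0.75 ± 0.20 and a DESeq2 adjusted p of 0.0167, with an interval from 45.2% to 77.9% of control. For HIST1H1E the authors' deposited table gives -0.72 ± 0.18 and a DESeq2 adjusted p of 0.0110 (47.5% to 78.1%). HIST1H1C lay closest to the threshold, at -0.62 ± 0.18 and a DESeq2 adjusted p of 0.0383 per the authors' deposited table (50.9% to 83.0%). It lost the call when p-values were adjusted over every gene with a p-value, with an adjusted p of 0.0538, and ranged from 0.0338 to 1.00 over the alternatives. By p, HIST1H1B ranked 68, HIST1H1E 117, HIST1H1D 143 and HIST1H1C 200 among the tested genes. HIST1H1C, HIST1H1D and HIST1H1E have similar coding sequences, and the sources used here do not state how reads matching more than 1 of them were counted, so the split between them is uncertain.

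The replication-independent gene H1FX was measured with a similar error. For H1FX the authors' deposited table gives a log2 fold change of -0.14 ± 0.18 (standard error) and a DESeq2 adjusted p of 0.878, with an interval from 71.4% to 115% of control. This interval lies above the point values of all 4 genes that fell. At the median standard error of the 5 tested members, 0.18, a fall to 65.7% of control or lower would have been called. The standard error of H1FX itself, 0.175, was slightly under that median of 0.183, so its own limit lay slightly nearer to control. A fall of H1FX well short of that limit would not have been called at this precision. H1FX has an antisense neighbour, H1FX-AS1, which the authors' deposited table lists at a mean normalized count of 69.3 and a log2 fold change of 0.05. The sources used here do not state strand-specific counting, so reads of this pair may not be told apart.

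HIST1H1A and HIST1H1T were at the limit of detection in PANC-1. Their mean normalized counts were 5.41 and 4.72 in the authors' deposited table, about 21.6 and 18.9 normalized reads summed over the 4 libraries. Their log2 fold changes were 0.88 and 0.65 with standard errors of about 1.5 each in the authors' deposited table, and no adjusted p was given for either. The 95% interval of HIST1H1A reached from 0.241-fold to 14.1-fold and that of HIST1H1T from 0.195-fold to 12.6-fold, so a change of the size seen in the other chromosome 6 genes was not detectable. HIST1H1T is the testis gene, and its promoter holds the H1 box and the CCAAT in the order seen in the 4 abundant genes.

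**Figure D3:**
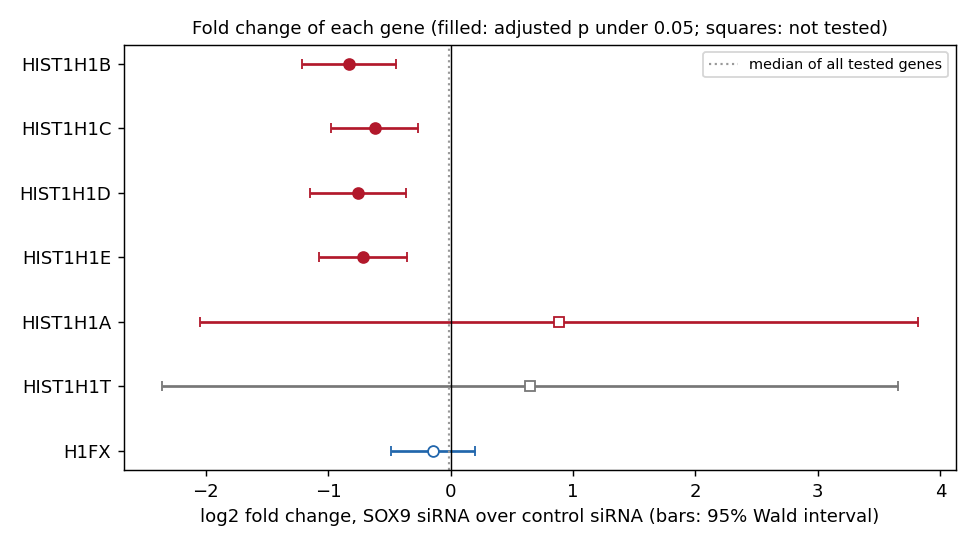
log2 fold change of SOX9 siRNA over control siRNA for each linker histone gene with its 95% Wald interval, filled where the adjusted p was under 0.05 and square where no adjusted p was given, with the median of all tested genes dotted. HIST1H1B, HIST1H1C, HIST1H1D and HIST1H1E lie between -0.83 and -0.62 with intervals below 0, and the intervals of the other 3 genes include 0.

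Pairs of tested genes were compared by the difference of their log2 fold changes, with a 95% interval that assumes independent errors, for all 10 pairs and without a p. Relative to H1FX the differences were -0.69 for HIST1H1B (-1.20 to -0.18), -0.61 for HIST1H1D (-1.13 to -0.09) and -0.57 for HIST1H1E (-1.07 to -0.08), and these 3 intervals exclude 0. The difference of HIST1H1C from H1FX was -0.48, and its interval from -0.97 to 0.01 includes 0. None of the 6 pairs among HIST1H1B, HIST1H1C, HIST1H1D and HIST1H1E differed beyond error, the widest being HIST1H1B minus HIST1H1C at -0.21 (-0.73 to 0.31), and these intervals still allow differences of moderate size.

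**Figure D4:**
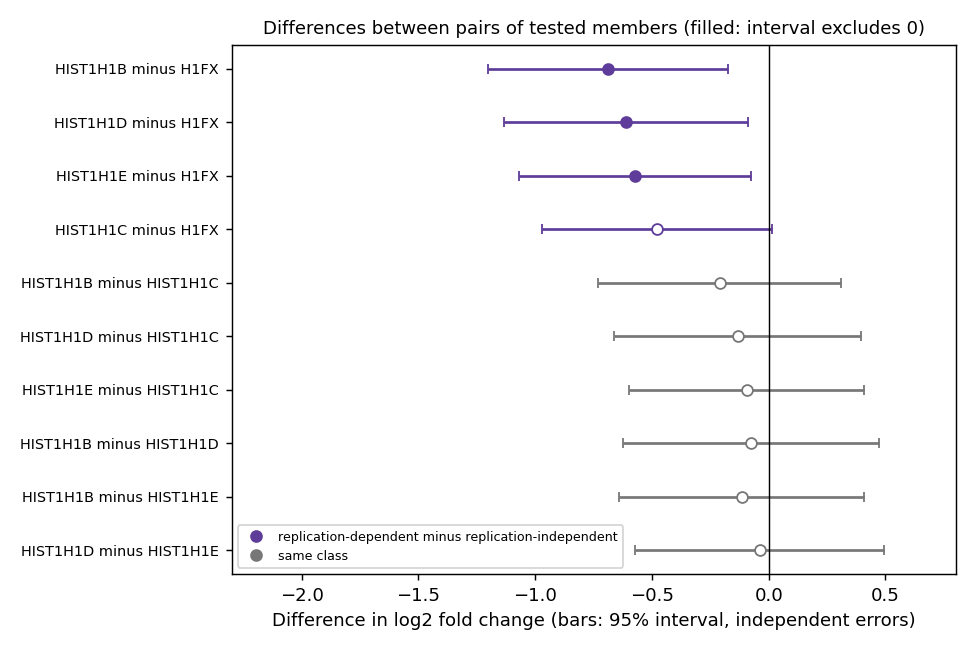
Difference in log2 fold change for each of the 10 pairs of tested linker histone genes with its 95% interval under independent errors, filled where the interval excludes 0. Of the 4 pairs of a replication-dependent gene with H1FX 3 exclude 0, and all 6 pairs among the replication-dependent genes include it.

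The make-up of the mRNA pool of these 7 genes was compared between the groups. Summed per kb, HIST1H1B, HIST1H1C, HIST1H1D and HIST1H1E stood at 60.6% of control (95% interval 52.8% to 69.4%, independent errors). These genes were measured in the same libraries and may share reads, so their errors need not be independent. The standard error of the sum, 0.10 on the log2 scale, lay under the lowest of any tested member, 0.18, through that assumption. Positively correlated errors would widen the interval, and no other error correlation was run for the sum. H1FX made up 3.10% of the counts per kb of the 7 genes in control and 4.56% with SOX9 siRNA. The ratio of H1FX to the sum of the tested replication-dependent genes stood at 149.7% of its control value with SOX9 siRNA (114% to 197%, independent errors). This interval rests on that of the sum and so on the same assumption, which was not tested for the ratio either. HIST1H1B made up 32.6% of the pool in control and 29.8% with SOX9 siRNA, and HIST1H1C 32.4% and 34.3%, both from implied levels without an error of their own.

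Set against all genes, the 4 falls were of abundant mRNAs and of moderate size. The median log2 fold change was -0.72 over the 5 tested linker histone genes and -0.62 over all 7, beside -0.02 over all tested genes. The standard errors of the tested members ran from 0.18 to 0.20, and the median over all tested genes was 0.215. Of 2060 tested genes at least as abundant as HIST1H1D, the least abundant of the 4, 34 were called lower, which is 1.65%. These 34 include the 4 linker histone genes themselves and several core histone genes, such as HIST1H4C and HIST1H2BC. In either direction 1.81% of the tested genes were called.

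**Figure D5:**
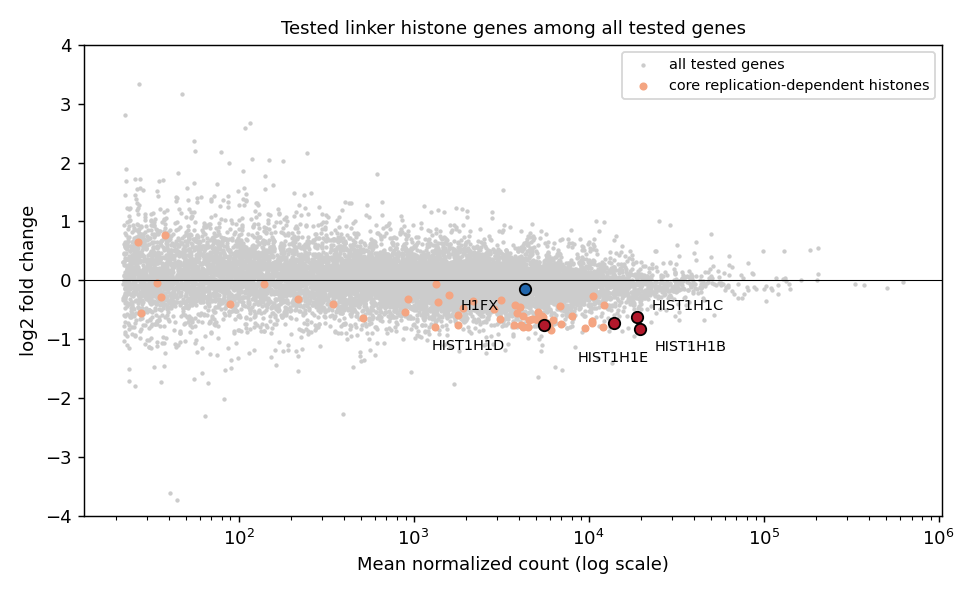
log2 fold change against mean normalized count (log scale) for all tested genes (grey), core replication-dependent histone genes (orange) and the 5 tested linker histone genes (large points). HIST1H1B, HIST1H1C, HIST1H1D and HIST1H1E lie between -0.83 and -0.62 at mean counts of 5532 or more, and H1FX near 0.

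Core histone genes, whose products form the nucleosome's octamer, were also lower or not called. Beside this and the following lists, 0.939% of all 14063 tested genes were called lower and 0.868% higher. In a short list 0 calls is near those shares. Of the 14063, 1565 had an unadjusted p under 0.05, 865 of them negative and 700 positive, and 7326 had a negative fold change. Of 53 tested core genes with symbols of the replication-dependent clusters, 20 fell and 0 rose, with a median log2 fold change of -0.60, and 38 had an unadjusted p under 0.05. Per the authors' deposited table HIST1H2BJ, an H2B gene, fell to 55.7% of control with a DESeq2 adjusted p of 0.00335. The authors' deposited table gives -0.42 for HIST1H2BK, the core gene with the highest mean count among those not called. Near-identical core histone copies may share reads, so their single values are uncertain. Replication-independent core variants had 0 calls among 9 tested genes by the authors' DESeq2 test and a median of -0.32, and of the 4 at an unadjusted p under 0.05 3 were negative and 1 positive. The positive one was H2AFJ, an H2A variant gene, at 0.54 on the log2 scale per the authors' deposited table. For their most abundant member H3F3B, an H3.3 gene, the authors' deposited table gives a log2 fold change of -0.14.

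Factors that make and process histone mRNA had 0 calls, which for 16 genes is near the share over all tested genes, 1.81% in either direction. Of 16 such genes, among them SLBP, which binds the histone stem-loop, and NPAT, which drives histone transcription in S phase, 0 were called by the authors' DESeq2 test and 0 had an unadjusted p under 0.05. Their median log2 fold change was -0.12, 12 of 16 were negative, and the most abundant, SRRT, a cap-complex protein of histone mRNA processing, stood at -0.23 per the authors' deposited table. DNA replication genes had 0 calls among 23 by the authors' DESeq2 test, also near that share. At an unadjusted p under 0.05 were 7 of them, beside 1565 of the 14063 tested genes. Negative values were held by 22, beside 7326 of all tested genes, and the median was -0.41. The authors' deposited table gives RRM2, a ribonucleotide reductase subunit and the most abundant of them, a log2 fold change of -0.41 and a DESeq2 adjusted p of 0.653. These values stand beside the falls of the S-phase H1 genes, and the share of cells in S phase was not measured, so fewer cells in S phase and less histone mRNA per such cell cannot be told apart.

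Proteins that handle or compete with linker histones were examined next. Beside their counts, 0.939% of all 14063 tested genes were called lower and 0.868% higher, 1565 had an unadjusted p under 0.05, and 7326 were negative. Of 7 H1 chaperones 1 fell and 0 rose, with a median log2 fold change of -0.29 and 7 negative values. Per the authors' deposited table the 1 called was PTMA, prothymosin alpha, an acidic nuclear protein that binds H1, which fell to 46.7% of control (31.4% to 69.3%) with a DESeq2 adjusted p of 0.0158. PTMA has many processed pseudogene copies that may share its reads, so its value is uncertain. For NPM1, nucleophosmin and the most abundant chaperone, the authors' deposited table gives a log2 fold change of -0.29, not called. HMG proteins, which compete with H1 for nucleosomes, had 0 calls among 9 tested genes by the authors' DESeq2 test and a median of -0.17. The 2 at an unadjusted p under 0.05 were HMGN1 at 0.84 and HMGN2 at -0.46 on the log2 scale per the authors' deposited table, in opposite directions. The authors' deposited table gives -0.17 for HMGA1, the most abundant.

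Enzymes that modify H1, such as CDK1 and CDK2, which phosphorylate it, had 0 calls among 8 tested genes by the authors' DESeq2 test. At an unadjusted p under 0.05 were 4 of them, all negative, beside 865 negative ones among the 14063 tested genes. Their median log2 fold change was -0.32. The authors' deposited table gives -0.07 for PARP1, which adds ADP-ribose and was the most abundant of them. HP1 proteins, heterochromatin factors that bind methylated histones, had 0 calls among 3 by the authors' DESeq2 test. The 2 at an unadjusted p under 0.05 also had opposite signs, CBX1 at -0.36 and CBX5 at 0.38 on the log2 scale per the authors' deposited table. The authors' deposited table gives -0.22 for CBX3, the most abundant HP1 gene. Of the germ-cell linker histones, H1FOO had a mean normalized count of 0.971 in the authors' deposited table and was not tested.

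Genes next to the linker histone genes in RefSeq order were compared as neighbours. Of the 14 flanking genes, 1 on each side of each member, 10 had an adjusted p. Of these 4 fell, beside 0.939% of all tested genes. All 4 are core histone genes already counted above, where 20 of 53 fell, so they are not a separate result. The other tested neighbours on chromosome 6 belong to that list as well. Per the authors' deposited table HIST1H3A, beside the nearly silent HIST1H1A, fell by 0.76 on the log2 scale with a DESeq2 adjusted p of 0.0335, and HIST1H4C, on one side of the nearly silent HIST1H1T, fell by 0.80 with a DESeq2 adjusted p of 0.0125. On the other side of HIST1H1T, HIST1H2BC fell by 0.73 on that scale with a DESeq2 adjusted p of 0.0129 per the authors' deposited table. HIST1H3C, beside HIST1H1C, fell by 0.61 on that scale, with 0.0403 as its DESeq2 adjusted p per the authors' deposited table. The neighbours of HIST1H1B, HIST1H2AL and HIST1H3I, had log2 fold changes of -0.65 and -0.42 and were not called in the authors' deposited table. Those of HIST1H1E, HIST1H2AC and HIST1H2BD, had -0.44 and -0.26 in the authors' deposited table, also not called. Outside the clusters, HMCES next to H1FX stood at -0.18 on the log2 scale per the authors' deposited table, not called.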

How the data were processed

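The comparison rests on 4 RNA libraries of PANC-1, 2 with SOX9 siRNA and 2 with control siRNA. The SOX9 ChIP-seq samples are not analysed here. Per the submitters' processing notes, reads were handled with HISAT2 2.0.5, featureCounts and DESeq2 1.18.1. Their settings, and which of the listed builds hg19 and mm10 was used, are not given in the sources used here. Per the file headers, the authors deposited a signal per gene, the mean of size-factor-normalized counts over the libraries. Fold changes and standard errors are on the log2 scale, per the file headers. The Wald statistic is a score deposited by the authors, who also deposited each p-value and adjusted p-value. An adjusted p was present for 14063 genes, termed tested, and absent for 5767 genes with means of 21.9 or less. Depth per library is unknown.

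1 gene of the set is not reported here. The linker histone genes and the lists were chosen with earlier results of these data known. Genes were called at an adjusted p under 0.05. Wald intervals at 95% span 1.96 standard errors each way. Group levels were solved from the mean and fold change for groups of equal size. Named were all members, SOX9, the nearest RefSeq neighbours and, per list, the called gene with the smallest adjusted p and the gene not called with the highest mean normalized count, termed most abundant. NPAT, SLBP, CDK1, CDK2 and H1FOO were named in addition, and EPCAM, KRT18, KRT19, H2AFJ, HMGN1, HMGN2, CBX1 and CBX5 after their values were seen. RefSeq names, lengths and promoters are those of GRCh38.p14. Protein sequences were not used here. Alternatives changed the adjustment, count minimum, null, centring, threshold and error correlation. Only the calls and the solving of group levels were run on simulated data. The pair intervals, summed levels, motif matches and neighbours were not. Python 3.11.15, pandas 2.3.3 and scipy 1.17.1 were used.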

Additional observations from a re-analysis of the deposited data

How the results depend on the processing

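H1FX was not called under any of the 8 alternatives run. Only centring on the median of tested genes altered the fold changes, and there the sign of each of the 5 tested members held. Under the other alternatives the sign could not change. HIST1H1B (-0.83) kept its call under 7 and lost it in a test against a change of at most 1.2-fold, with an adjusted p of 0.502 (range over the alternatives 0.00367 to 0.502). HIST1H1D (-0.75, range 0.0149 to 1.00), HIST1H1E (-0.72, 0.00991 to 1.00) and HIST1H1C (-0.62, 0.0338 to 1.00) also lost theirs in that test, at a threshold of 0.01 and under an empirical null with a spread of the Wald statistics of 1.13, where their adjusted p-values were 0.0973, 0.0718 and 0.167. HIST1H1C lost its call with adjustment over every gene as well (0.0538). Members called lower were thus 4 as reported, 1 under the empirical null, 1 at a threshold of 0.01 and 0 against 1.2-fold, where 0.263%, 0.348% and 0.0782% of genes were called lower. Under the same 3 settings core histone genes called lower were 1, 4 and 0, and H1 chaperones 0, 0 and 0. At a threshold of 0.1, 2 H1-modifying enzymes, CDK1 and EHMT2, named after their values were seen, were lower, beside 1.43% of tested genes. CDK1 had a mean normalized count of 7527 and a log2 fold change of -0.56 ± 0.18 (standard error). EHMT2 had a low mean of 40.9, under both count minimums, and a log2 fold change of -3.60 ± 1.19. With the 2 untested genes the members' median was -0.62, a setting added after seeing the data. With an error correlation of -0.5 the differences of HIST1H1D (-0.61) and HIST1H1E (-0.57) from H1FX included 0, and with 0.5 that of HIST1H1C from H1FX (-0.48) excluded it. The cause of these changes was not tested. No replicate could be left out because the table has no values per library. No paired analysis was possible because the columns carry no values per library. Depth limits HIST1H1A and HIST1H1T, with about 21.6 and 18.9 normalized reads in all.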
